A study of Mus musculus with 9 samples.

Results

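Ribosomal protein genes encode the protein subunits of the cytoplasmic ribosome. In the files they are the 78 of 21210 genes whose symbol is Rpl or Rps with a number, Rplp0 to Rplp2, or Rpsa. Of the 78 rows, 32 belong to the small subunit and 46 to the large subunit. The rule used names alone and no measured value. The values compared are normalised read counts from strand-specific poly-A RNA sequencing, as the authors deposited them.

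Lateral cortices of embryonic day 14.5 C57BL/6 mice were dissociated and sorted by fluorescence into 3 groups, with 3 libraries each. Proliferating progenitors lacked the Btg2 reporter (a reporter of a gene switched on in progenitors that will make neurons), differentiating progenitors carried it, and neurons carried the Tubb3 reporter (neuronal beta-tubulin). All embryos carried both reporters, written Btg2GFP/Tubb3GFP in the genotype label, while the titles call the Btg2 gate RFP. Each library is a pool of cells from more than 3 embryos of different litters, so the spread between libraries is between pools.

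Each ribosome joins a small subunit, which reads the message, to a large subunit, which forms the peptide bond. Nearly all ribosomal protein messages begin with a run of pyrimidines, the terminal oligopyrimidine motif, through which the TOR kinase controls their translation together. In mammals most of these genes also have processed pseudogenes, which are copies of the spliced message inserted elsewhere in the genome. Reads from the message can match such a copy as well as the gene.

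How closely a copy can match is shown by the first 120 coding bases of Rps16 and of Rps10, each beside the pseudogene row of the table that shares most of its sequence. They are lower case, 5′ to 3′, with a base that differs in capitals, and come from GENCODE M21 transcripts on build GRCm38, not from the mm9 build of the files. Rps16 encodes a small-subunit protein and lies on chromosome 7 (28350652 to 28353155, plus strand), and its copy lies on chromosome 5 (129128077 to 129128517, minus strand). Rps10 also encodes a small-subunit protein and lies on chromosome 17 (27630418 to 27636669, minus strand), and its copy lies on chromosome 3 (95622278 to 95622772, plus strand).
Rps16: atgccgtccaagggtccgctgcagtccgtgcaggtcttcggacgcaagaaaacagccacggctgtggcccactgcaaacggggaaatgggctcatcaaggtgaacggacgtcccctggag
Rps16-ps2: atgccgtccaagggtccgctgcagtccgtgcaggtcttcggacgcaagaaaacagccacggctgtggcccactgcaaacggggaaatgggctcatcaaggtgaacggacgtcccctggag
Rps10: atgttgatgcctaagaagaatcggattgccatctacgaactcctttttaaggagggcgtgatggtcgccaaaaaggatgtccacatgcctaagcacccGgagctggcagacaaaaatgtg
Rps10-ps1: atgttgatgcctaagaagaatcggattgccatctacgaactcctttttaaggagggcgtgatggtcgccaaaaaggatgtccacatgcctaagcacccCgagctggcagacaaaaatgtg
Rps16-ps2 differed from Rps16 at 0 of 438 coding bases, so that no read inside the coding sequence can tell them apart. Rps10-ps1 differed from Rps10 at 6 of 495 coding bases and shared a longest identical run of 133 bases.

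Own rows and copy rows were far apart for these genes. Rps16 was listed at 42, 38 and 37 in proliferating progenitors, 43, 33 and 40 in differentiating progenitors, with 15, 14 and 20 in neurons. Rps16-ps2 was listed at 2343, 454 and 291 in proliferating progenitors, 2265, 542 and 250 in differentiating progenitors, with 1755, 340 and 223 in neurons, replicate 1 first. The pseudogene row was thus above the gene's own row in all 9 libraries, and highest in replicate 1 of each group. Rps6, the substrate of S6 kinase in the small subunit, showed the same order: its own row held 17 to 38 in the 9 libraries. Its copy Gm13654 on chromosome 2 held 1082, 623 and 577 in proliferating progenitors, 1026, 634 and 543 in differentiating progenitors, with 789, 503 and 408 in neurons. This copy also differed at 0 of the 747 coding bases of Rps6.

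Most ribosomal protein genes had a modestly lower value in neurons than in either progenitor group. A filter asked for 10 or more in 3 or more libraries, and 76 members passed it. Their median log2 change was -0.32 in neurons against differentiating progenitors, while that of all 15828 genes tested was -0.01. Against proliferating progenitors it was -0.34, with -0.02 for all genes. Between differentiating and proliferating progenitors it was -0.07, with -0.02 for all genes. The member values lay close together: 72 of 76 were below 0 in neurons against differentiating progenitors, and so were 7998 of all 15828 genes. In pooled cells, fewer cells of a type and less RNA per cell cannot be told apart.

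**Figure D1:**
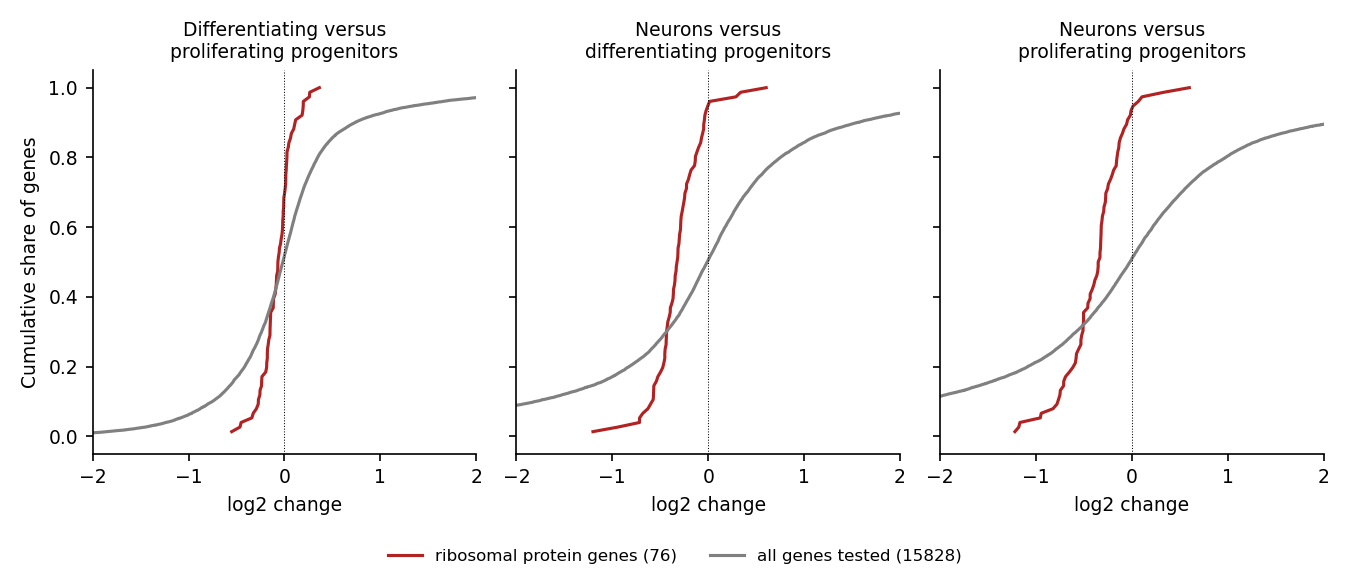
Cumulative share of genes (vertical axis) by log2 change (horizontal axis, cut at -2 and 2) in the 3 comparisons, for the 76 ribosomal protein genes tested (red) and all 15828 genes tested (grey). In the neuron comparisons the red curve is steep and lies left of 0, with medians of -0.32 and -0.34, while the grey curve is centred near 0.

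By single genes, limma with Benjamini-Hochberg adjustment over all 15828 genes called 19 members lower and 1 higher in neurons than in differentiating progenitors. The background of calls was large in this comparison, with 26.4% of all genes lower and 27.6% higher. The share of members called lower, 25.0%, was thus near the background, and the share called higher, 1.32%, was below it. The lower count rested partly on single libraries: it was 8 without replicate 3 of neurons, 12 without replicate 2 of neurons and 11 without replicate 1 of differentiating progenitors. Over all genes 3792 of 15514, 3755 of 15510 and 4004 of 15600 were lower in these fits. With replicate number as a block, since same-numbered libraries deviated together, 48 members were lower and 3 higher, on a background of 35.5% lower and 35.8% higher. Within every replicate number, 56 of the 76 members were lower in neurons, or 73.7%, beside 40.5% of all genes. Against proliferating progenitors 55 were, beside 43.3% of all genes.

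Neurons against proliferating progenitors share their neuron libraries with that comparison and gave 24 members lower and 1 higher, where 31.1% and 32.2% of all genes were called. The block gave 50 lower and 2 higher, on a background of 39.5% lower and 38.7% higher. Dividing each library by its total moved the median of all genes to -0.23 against differentiating and -0.31 against proliferating progenitors, as neuron libraries have the larger normalised totals. Under that scaling the calls over all genes were 5589 lower and 3353 higher against differentiating progenitors, where the deposited scaling gave 4183 lower and 4368 higher. Such a division shifts all genes of a comparison by nearly the same amount. The members' median relative to all genes therefore stayed at -0.31 against differentiating progenitors, which is no check of the scaling. Total scaling called 35 members lower and 1 higher against differentiating progenitors. Against proliferating progenitors total scaling called 42 members lower and 0 higher, beside 6605 lower and 3869 higher of all 15738 genes tested. The deposited scaling gave 4924 lower and 5099 higher over all 15828 genes there.

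In the authors' deposited table, 12 of the 78 members have an adjusted p of at most 0.05 for neurons against differentiating progenitors, 11 lower and 1 higher, beside 34.3% of all 21210 genes in either direction. The same authors' deposited table gives 19 members, all lower, for neurons against proliferating progenitors and 1 lower for differentiating against proliferating progenitors, beside 42.4% and 13.7% of all genes.

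Rps27l, a paralogue of Rps27 known as a target of p53, was among the clearest decreases. It had 705, 623 and 540 in proliferating progenitors, 570, 563 and 449 in differentiating progenitors, with 300, 245 and 276 in neurons. The neuron libraries lay below all 6 progenitor libraries. The log2 change was -0.94 ± 0.15 (SE) against differentiating progenitors (limma, adjusted p = 0.00046) and -1.18 against proliferating progenitors (limma, adjusted p = 7.8e-05). Rps27 itself did not pass the filter, with 2 to 9 in every library, so the pair cannot be compared in change.

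Other small-subunit genes fell in neurons too. Rps12 had 46, 35 and 37 in neurons against 76, 49 and 73 in differentiating progenitors, a log2 change of -0.72 ± 0.22 (SE, limma adjusted p = 0.023). Rps12 lost this call in 5 of 22 refitted alternatives, with an adjusted p of up to 0.0807. Rps24 averaged 1887 ± 227 in neurons and 2934 ± 497 in differentiating progenitors (SD, n = 3 each), with a log2 change of -0.63 (limma adjusted p = 0.0047). Its neuron libraries did not overlap those of either progenitor group. Rpsa, also known as the laminin receptor precursor, averaged 1709 ± 93.4 in neurons and 2542 ± 213 in differentiating progenitors (SD, n = 3 each), a log2 change of -0.57 (limma adjusted p = 0.0019).

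For several members the call depended on how copies are counted. Rps16 had a log2 change of -1.20 ± 0.23 (SE) in neurons against differentiating progenitors (limma adjusted p = 0.0017). With its pseudogene rows added, the change was -0.45 with an adjusted p of 0.75. Rps27a, which encodes ubiquitin fused to a ribosomal protein, averaged 92.3 ± 12.9 in neurons and 149 ± 26.0 in differentiating progenitors (SD, n = 3 each), a log2 change of -0.68 (limma adjusted p = 0.012). Once pseudogene rows were added by sequence, its change was -0.53 with an adjusted p of 0.128. For Rps16 the SE was 1.02 with the rows added and 0.23 without them, beside the high replicate 1 values of its copy. A blocked fit with the rows added was not run.

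Large-subunit genes were lower too in their median. The median log2 change in neurons against differentiating progenitors was -0.26 for 45 large-subunit members and -0.42 for 31 small-subunit members, and the difference was not tested. Among them 7 large-subunit (15.6%) and 12 small-subunit members (38.7%) were called lower, beside 26.4% of all genes. The block gave 24 in each subunit, 53.3% of the large-subunit and 77.4% of the small-subunit members, beside 35.5% of all genes. Rpl39, a small protein of the nascent chain exit tunnel, had 1600, 1814 and 1781 in neurons against 2677, 2696 and 2504 in differentiating progenitors. Its log2 change was -0.60 ± 0.09 (SE, limma adjusted p = 0.00045), and the groups did not overlap. Its paralogue Rpl39l was at 0 to 2 in all libraries and did not pass the filter. Rplp0, the base of the acidic stalk that recruits elongation factors, averaged 8401 ± 667 in neurons and 11554 ± 1634 in differentiating progenitors (SD, n = 3 each), with a log2 change of -0.45 (limma adjusted p = 0.014). Rplp1 and Rplp2 of the same stalk had log2 changes of -0.57 and -0.38 that were called with the block alone (adjusted p = 1.3e-05 and 0.0041).

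Rpl15, a protein of the large-subunit core, went the other way. It had 993, 898 and 876 in proliferating progenitors, 785, 748 and 756 in differentiating progenitors, with 1194, 1104 and 1185 in neurons. The 3 groups did not overlap, with differentiating progenitors lowest and neurons highest. The log2 change was 0.60 ± 0.08 (SE) in neurons against differentiating progenitors (limma adjusted p = 0.00022), and this call held in all 22 refitted alternatives. It was 0.33 against proliferating progenitors (limma adjusted p = 0.0063), falling to 0.05 with total scaling (adjusted p = 0.682). The decrease in differentiating against proliferating progenitors, -0.27 ± 0.08 (SE, limma adjusted p = 0.042), was lost in 14 of 22 refitted alternatives, with an adjusted p of up to 0.122. Its most abundant pseudogene row by sequence, Gm10020, held 7 to 28 in every library.

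Rpl5 and Rps7 were also higher in neurons once replicate number was a block. Rpl5, which binds the 5S ribosomal RNA, had 820, 673 and 738 in neurons against 643, 595 and 583 in differentiating progenitors, a log2 change of 0.29 (adjusted p = 0.054 by limma, 0.0041 with the block). Rps7 had 456, 453 and 263 in neurons against 312, 400 and 215 in differentiating progenitors, a log2 change of 0.34 (adjusted p = 0.44 by limma, 0.012 with the block). The groups overlapped for Rps7, and each neuron library was above the differentiating progenitor library of its number. Both genes have copies with high values. Rpl5 pseudogene rows summed to 1258, 209 and 207 in neurons against 1300, 283 and 232 in differentiating progenitors, lower within each number. Those of Rps7 summed to 1774, 237 and 214 against 1660, 255 and 152, lower in replicate 2 and higher in the others. The changes of Rpl5 and Rps7 with these rows added are not reported here. Rpl11, which forms a complex with Rpl5 and the 5S RNA, was lower, with a log2 change of -0.50 (limma adjusted p = 0.018).

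**Figure D2:**
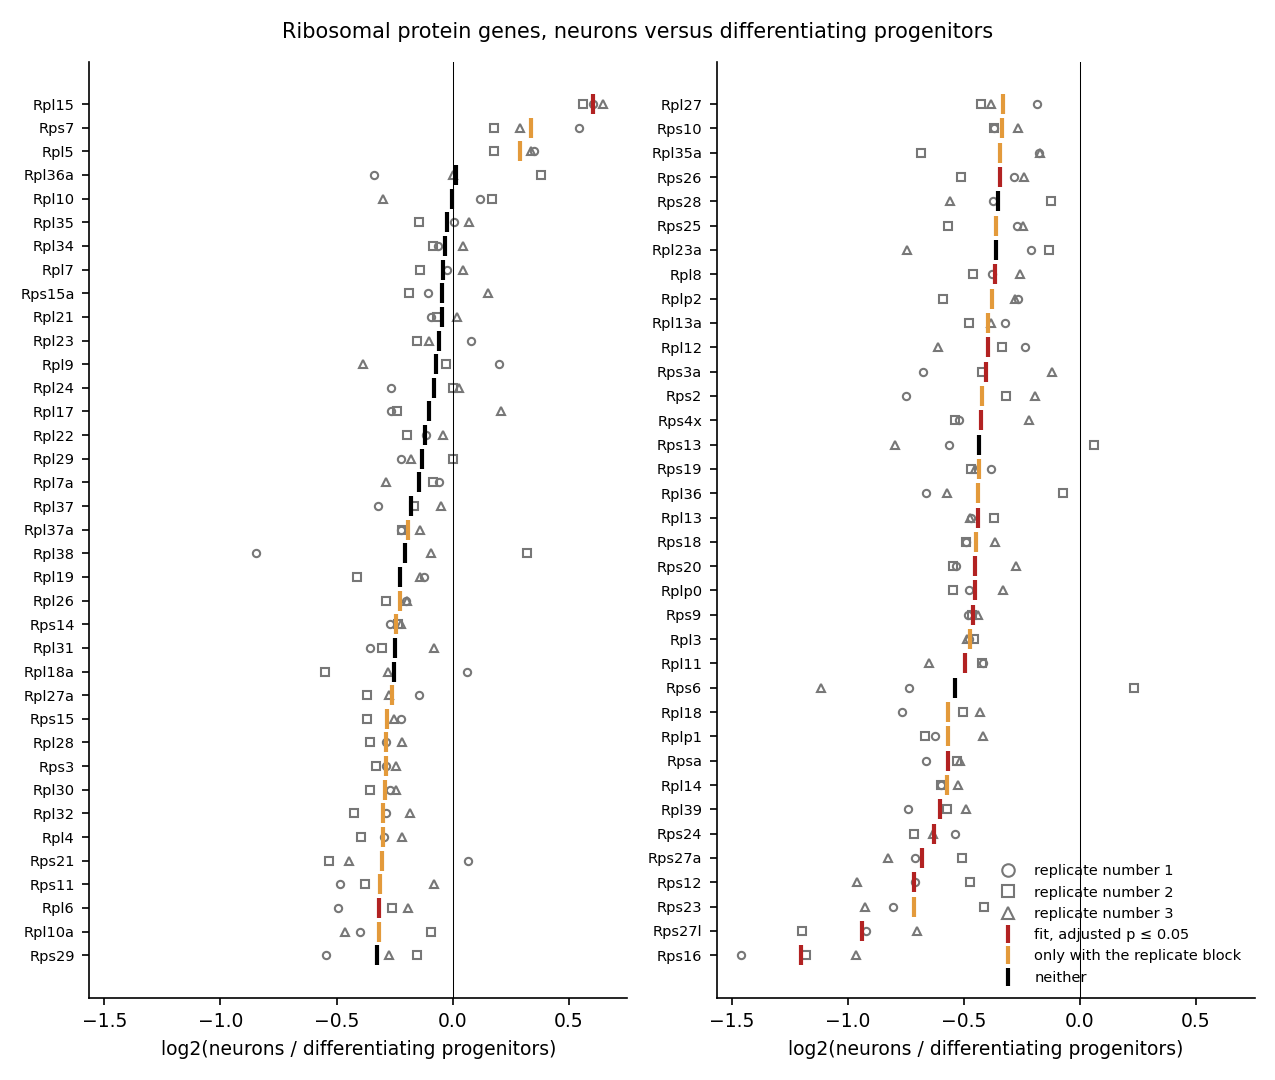
Log2 ratio of neurons to differentiating progenitors (horizontal axis) for 73 of the 76 members tested, with each replicate number as an open symbol and the fitted change as a bar, coloured by whether it was called in the fit, with the block alone or in neither. Rpl15, Rps7 and Rpl5 are the members with called increases, and Rps16 and Rps27l have the largest decreases.

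Between differentiating and proliferating progenitors few members changed. Limma called 0 higher and 2 lower, with 13.8% of all genes higher and 11.1% lower. The block gave 12 lower and 0 higher, on a background of 22% lower and 24% higher. Within every replicate number 32 were lower, beside 34.7% of all genes. Rpl12, which sits at the base of the stalk, had 517, 497 and 598 in differentiating progenitors against 798, 714 and 848 in proliferating progenitors. The groups did not overlap, and the log2 change was -0.55 ± 0.11 (SE, limma adjusted p = 0.007). It was lower again in neurons, at 438, 393 and 391, a log2 change of -0.40 against differentiating progenitors (limma adjusted p = 0.014). With pseudogene rows added by sequence, the first change was -0.46 with an adjusted p of 0.507. The pseudogene rows of Rpl12 summed to 1663, 423 and 467 in proliferating progenitors and 1348, 310 and 339 in differentiating progenitors. They were thus lower within each replicate number too, and highest in replicate 1. Rpl15 was the other call. Rpl10a, a protein of the large subunit's mobile L1 stalk, had 1000, 685 and 837 in differentiating progenitors against 1179, 993 and 1286 in proliferating progenitors, a log2 change of -0.46 that was called with the block alone (adjusted p = 0.065 by limma, 0.0041 with the block). In neurons Rpl10a was at 759, 642 and 607, a log2 change of -0.78 against proliferating progenitors (limma adjusted p = 0.0021). With pseudogene rows added this change was -0.70 with an adjusted p of 0.2. Those rows summed to 2045, 685 and 588 in proliferating progenitors and 1577, 436 and 337 in neurons, also lower within each replicate number. For Rpl12 and Rpl10a no blocked fit was run with pseudogene rows added.

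Summed over the 78 genes, the members took 0.934%, 1.16% and 1.00% of all values in proliferating progenitors, 0.824%, 1.09% and 0.919% in differentiating progenitors, with 0.556%, 0.715% and 0.672% in neurons. Neuron samples had the 3 lowest shares, while the progenitor groups overlapped. These shares divide by normalised totals, which were 21442620 to 22076409 in neurons and 17531558 to 19077173 in the progenitor libraries. The undivided member sums of neurons and differentiating progenitors overlapped, with 157863 in replicate 2 of neurons and 151841 in replicate 1 of differentiating progenitors. The mean shares were 1.03 ± 0.12% in proliferating progenitors, 0.943 ± 0.132% in differentiating progenitors, with 0.648 ± 0.082% in neurons (SD, n = 3 each). Small-subunit genes made up 41.0%, 41.5% and 40.8% of the members' sum in these groups, a difference smaller than the spread between libraries.

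The 419 pseudogene rows assigned by shared sequence took 0.398%, 0.363% and 0.262% in replicate 1 of proliferating progenitors, differentiating progenitors and neurons. In replicates 2 and 3 they took 0.0728% to 0.124%. Set against the members' own sum, they came to 42.6% to 47.2% of it in replicate 1 and 10.4% to 11.02% in the other 6 libraries. All processed pseudogenes of the table took 1.59% to 2.24% of replicate 1 libraries and 0.422% to 0.614% of the others. With these rows added the share was 1.24% in proliferating progenitors, 1.14% in differentiating progenitors, with 0.786% in neurons, in the same order.

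**Figure D3:**
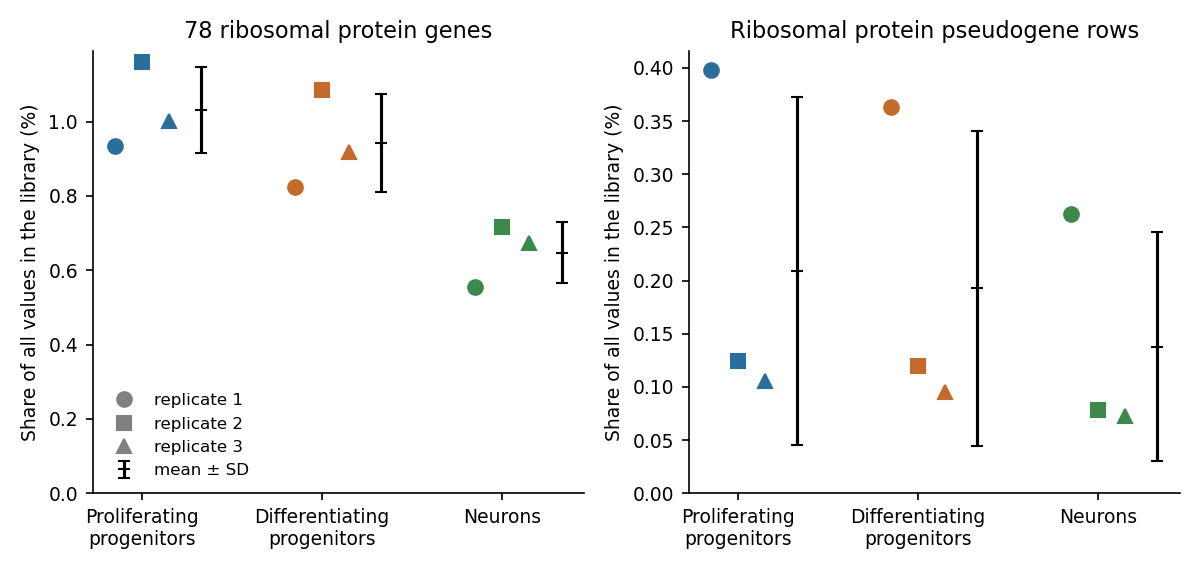
Share of all values in each library, in percent, taken by the 78 ribosomal protein genes (left) and by the 419 rows of their pseudogenes (right), with the mean and SD of each group. Gene shares are lowest in neurons, 0.556% to 0.715%, and pseudogene shares are highest in replicate 1 of every group.

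Levels per kilobase of the deposited gene length spread widely among the members, although the ribosome holds most of these proteins in equal number. That length can differ from the message, so the levels depend on it. It is 3759 bases for Rpl18, whose GENCODE M21 transcript has 679, while Rpl32 has 517 in both. Rplp1 was highest at 14762 per kilobase (mean of 9 libraries), and Rpl8, Rpl4, Rpl32 and Rps15 followed at 11535, 8895, 7858 and 7687. The lowest members with a mean value of at least 10 were Rps6 at 15.9 per kilobase, Rpl38 at 24.2, Rps29 at 26.6, Rps23 at 27.4 and Rps16 at 38.8. The median of the 78 was 585 per kilobase.

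Several of the lowest members had pseudogene rows far above their own row. For Rps29 the own row held 12 to 25 in every library, while Gm14303, its main copy in the table, held 1462, 773 and 360 in proliferating progenitors, 1911, 1208 and 487 in differentiating progenitors, with 2113, 854 and 610 in neurons. In 9 members the assigned pseudogene rows together were above the own row in all 9 libraries, Rpl11, Rpl31, Rps6, Rps16, Rps23 and Rps29 among them. Summed over replicate 1 libraries alone this held for 27 members.

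To describe this for all members, each protein-coding transcript was cut into overlapping 50-base windows and compared with annotated pseudogene transcripts. Among the 5 lowest members, the share of windows found exactly in a pseudogene was 84.6% for Rps6, 55.4% for Rpl38, 48.4% for Rps23, 37.2% for Rps16 and 35.8% for Rps29. Among the 5 highest it was 39.02% for Rps15, 30.9% for Rplp1, 28.4% for Rpl32, 16.5% for Rpl4 and 7.86% for Rpl8, so the 2 sets overlapped. Over 75 members the share and the level per kilobase had a Spearman rho of -0.53 and a Pearson r of -0.50 on the log2 level. This is a description across genes of the same libraries, and genes are not independent replicates. The 41 members with at least 50% of windows shared had a median level of 378 per kilobase, and the 34 with fewer had 1690 per kilobase. The same share and the log2 change of neurons against differentiating progenitors had a rho of 0.04, and the median changes were -0.34 and -0.31 in these sets.

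**Figure D4:**
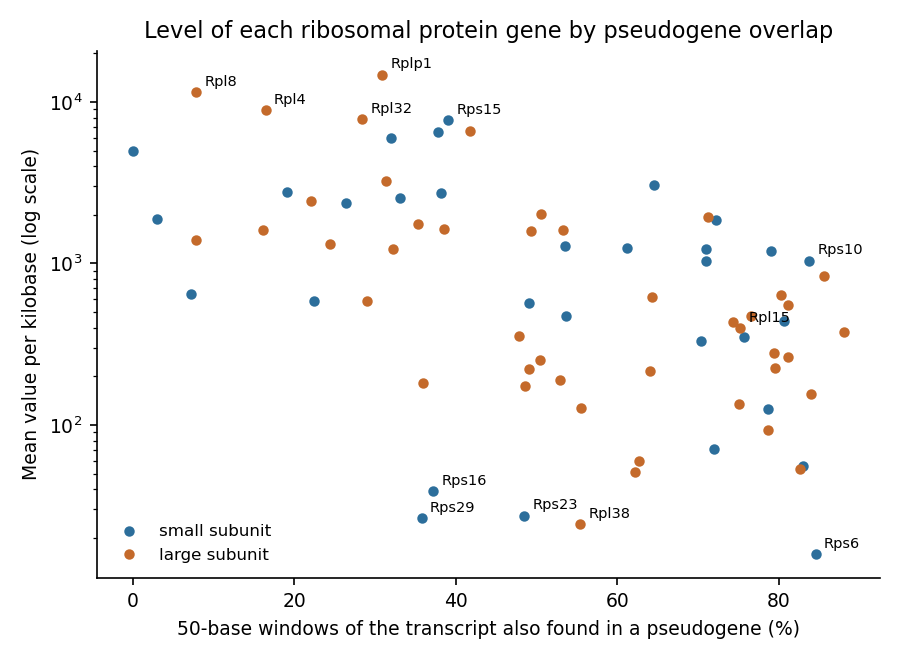
Mean value per kilobase over 9 libraries (vertical axis, log scale) against the share of each transcript's 50-base windows also found in an annotated pseudogene (horizontal axis, percent), for small-subunit (blue) and large-subunit (orange) genes with a mean value of at least 10. Members with at least 50% of windows shared reach at most 3069 per kilobase, while Rplp1 reaches 14762 at 30.9%.

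Replicate 1 differed from replicates 2 and 3 by a ratio that varied between genes and was alike in the 3 groups. Rps10 had 596, 3293 and 3076 in proliferating progenitors, 522, 2857 and 2845 in differentiating progenitors, with 404, 2211 and 2364 in neurons. Replicate 1 was at 0.187, 0.183 and 0.177 of the mean of replicates 2 and 3 in these groups (with 1 added to both terms). In all 3 groups this ratio was below 0.5 for 8 members, Rps10, Rps19, Rps2, Rps21, Rpl35, Rpl37, Rpl19 and Rplp2, beside 0.398% of all genes tested. It was above 1.5 for 5 of 76 members, Rpl7a and Rpl29 among them, a share near the 6.34% of all genes. The largest difference between groups in the log2 of this ratio was below 0.5 for 68 of 76 members.

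Pseudogene rows differed by replicate for Rps10. Rps10-ps1 had 1265, 309 and 226 in proliferating progenitors, 1072, 311 and 234 in differentiating progenitors, with 796, 207 and 233 in neurons, highest in replicate 1 where Rps10 was lowest. For Rps19, which had 829, 3489 and 3131 in proliferating progenitors, the 4 assigned pseudogene rows summed to 48, 32 and 35 there. The part of pseudogenes in the replicate differences was not tested.

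**Figure D5:**
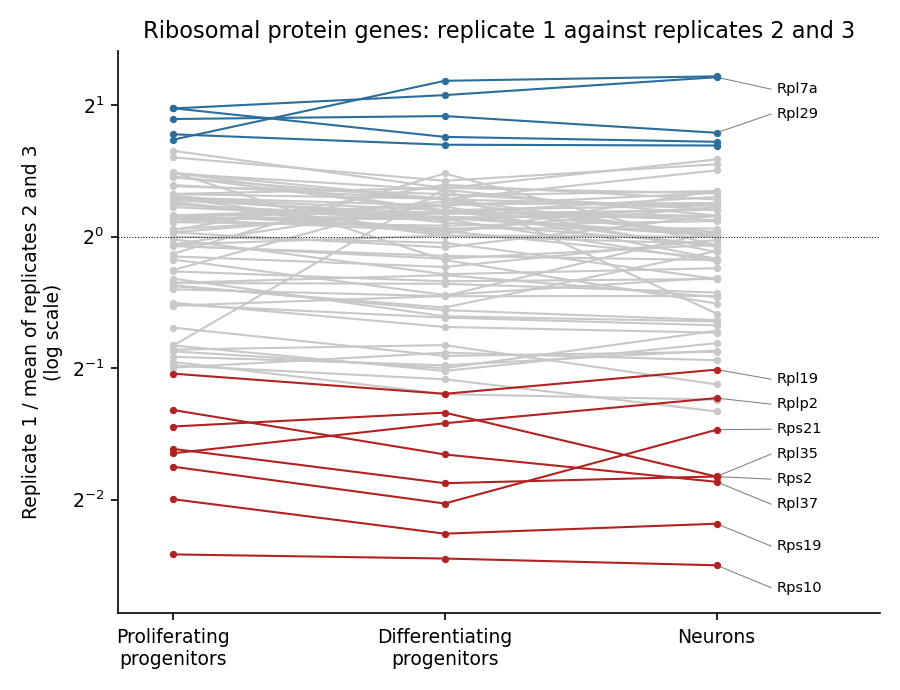
Ratio of replicate 1 to the mean of replicates 2 and 3 (vertical axis, log scale) in the 3 groups for the 76 members tested, with a line for each gene. The 8 members below 0.5 in every group are red and the 5 above 1.5 in every group are blue with 2 of them labelled, and most lines run nearly flat across the groups.

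Within one replicate number the neuron change was alike where the levels were not. Rps10 in neurons was at 77.4%, 77.4% and 83.1% of differentiating progenitors in replicates 1, 2 and 3, although the fit across replicates gave -0.34 ± 0.95 (SE, limma adjusted p = 0.80). With the block its adjusted p was 0.00035. Rps19 was at 76.5%, 72.2% and 73.1%, with an adjusted p of 0.70 by limma and 0.00018 with the block. The median change over the 76 members was -0.32, -0.36 and -0.26 in replicates 1, 2 and 3 for neurons against differentiating progenitors.

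Members with a paralogue outside the pattern were set beside it. Rpl22l1, the paralogue of Rpl22, averaged 225 ± 60.3 in neurons and 382 ± 24.0 in differentiating progenitors (SD, n = 3 each), a log2 change of -0.79 ± 0.18 (SE, limma adjusted p = 0.0049). Rpl22 had a change of -0.12 (limma adjusted p = 0.43). Rpl7l1 had 1153, 1275 and 1261 in neurons against 1669, 1566 and 1463 in differentiating progenitors, a log2 change of -0.35 (limma adjusted p = 0.0064). Rpl7 had a change of -0.04 (limma adjusted p = 0.94) and a replicate 1 level below the others in all groups. Whether the paralogues differ in change was not tested. Rps4x averaged 2487 ± 40.9 in neurons and 3356 ± 359 in differentiating progenitors (SD, n = 3 each), a log2 change of -0.43 (limma adjusted p = 0.01). Rpl3 had a change of -0.47 that was called with the block alone (adjusted p = 3e-05). Rpl10 had 443 ± 11.9 in neurons and 451 ± 96.5 in differentiating progenitors (SD, n = 3 each, limma adjusted p = 0.99). Rpl3l, Rpl10l and Rps4l, paralogues of Rpl3, Rpl10 and Rps4x whose symbols fit the pattern, had no row.

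The machinery around the ribosome was counted in the same fit, where 26.4% of all genes were lower and 27.6% higher in neurons than in differentiating progenitors, or 35.5% and 35.8% with the block. Of 46 ribosome biogenesis genes, 19 were lower and 2 higher in neurons than in differentiating progenitors (median log2 change -0.26), and the block gave 30 and 3. Against proliferating progenitors 30 were lower and 0 higher, beside 31.1% and 32.2% of all genes, and the block gave 41 and 1. Of the same genes, 10 were lower and 0 higher in differentiating against proliferating progenitors, with a median of -0.25, beside 11.1% and 13.8% of all genes. The block gave 34 lower there, beside 22% of all genes. Ltv1, an assembly factor of the small subunit, averaged 238 ± 9.45 in neurons and 464 ± 50.5 in differentiating progenitors (SD, n = 3 each), a log2 change of -0.96 (limma adjusted p = 4.9e-05). Utp20, of the small-subunit processome, had a log2 change of -0.89 (limma adjusted p = 0.0002). Of 13 RNA polymerase I genes, 2 were lower and 2 higher in neurons than in differentiating progenitors (6 and 3 with the block), with Polr1a, its largest subunit, at -0.71 (limma adjusted p = 0.00015) and Polr1d at 0.98 (limma adjusted p = 0.0011). Of 76 mitochondrial ribosomal protein genes, 16 were lower and 2 higher, with a median of -0.14. That is 21.1% and 2.63%, both below the shares of all genes, and the block gave 30 lower (39.5%) and 6 higher (7.89%). Mrpl13 had the smallest adjusted p among them, with a change of -1.15 (limma adjusted p = 7.5e-06).

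Translation factors were counted next, against the same shares of all genes. Of 39 initiation factor genes, 7 were lower and 1 higher in neurons than in differentiating progenitors (median -0.09), and 16 and 4 with the block. Eif1b had a change of -0.65 (limma adjusted p = 0.00014). Of 9 rows for 8 genes listed under elongation, the kinase Eef2k among them, 4 were higher and 0 lower (median 0.25), and 5 and 2 with the block. Eef1a2, the form of elongation factor 1A used by mature neurons, had 1183, 1325 and 1150 in neurons against 11, 13 and 15 in differentiating progenitors, a log2 change of 6.45 (limma adjusted p = 1.4e-07). Eef2k, the kinase that inhibits elongation factor 2, made up 2 of the 4 higher rows, at 0.92 and 1.31. Within every replicate number Eef1b2, Eef1d and Eef1g were lower in neurons than in differentiating progenitors. Eef2 and Eef1e1 were higher within every number, and Eef1a1 went both ways. Of 20 other terminal oligopyrimidine messages, 4 were lower and 0 higher (median -0.13), and 9 and 2 with the block. Vim was at -2.53 and Nap1l1 at -0.91. Vim is also a radial glia marker.

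In the TOR pathway list of 22 genes, 5 were higher (22.7%) and 4 lower (18.2%) in neurons than in differentiating progenitors. Both shares were below those of all genes, 27.6% and 26.4%. The block gave 8 higher (36.4%) and 5 lower (22.7%), beside 35.8% and 35.5% of all genes. Eif4ebp1, the translation repressor that TOR inactivates, averaged 11 ± 1 in neurons and 61 ± 19.9 in differentiating progenitors (SD, n = 3 each), a log2 change of -2.33 (limma adjusted p = 3.6e-05). Tsc1, an inhibitor of the pathway, had a change of 0.76 (limma adjusted p = 3.7e-05). Between differentiating and proliferating progenitors, Ddit4 and Sesn1, stress-induced inhibitors of the pathway, had changes of 1.00 and 1.09 (limma adjusted p = 0.00016 and 0.00026). Sesn3, a relative of Sesn1 in the list, was lower in neurons than in differentiating progenitors, at -0.62 (limma adjusted p = 0.0024). Ddit4 was also lower there, at 3588, 3526 and 3571 in neurons against 4479, 5108 and 4743.

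The promoters of the members, most of which had a lower value in neurons, were compared by sequence. The 250 bases before the start were searched for CGGAAG, the core of the site bound by ETS factors, on both strands (CTTCCG on the other). RefSeq windows on GRCm38.p6 matched 57 of the 78 members, and 31 of them, or 54.4%, held the motif, beside 15.3% of 27025 genes with a window. The longer CCGGAAG, which contains it, was in 29.8% of members and 7.83% of genes. The 27025 genes were not limited to those tested in these libraries, so they are not a matched set for the members. A match is a description of the letters and not a bound site. The 100 bases before the start are shown for Rpl15, which was higher in neurons, and Rps27l, which was lower, with the motif in capitals. Rpl15 is at chr14:18270987-18271086 on the minus strand and Rps27l at chr9:66945986-66946085 on the plus strand.
Rpl15: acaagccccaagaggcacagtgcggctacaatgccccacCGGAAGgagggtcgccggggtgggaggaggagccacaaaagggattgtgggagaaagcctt
Rps27l: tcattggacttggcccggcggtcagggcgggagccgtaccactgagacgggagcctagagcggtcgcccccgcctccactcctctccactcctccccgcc
Rpl15 held 1 match in these bases. Rps27l held 0 matches there and 0 in its 250 bases. Of other members described above as called lower in neurons without the block, Rps12, Rps16, Rpl12 and Rpsa held the motif in their 250 bases. Rps24, Rpl39, Rplp0, Rpl11, Rps4x and Rpl10a did not, and Rps27a had no matched window. Whether the motif goes with the direction of change was not tested.

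Sorting and cell mixture were read from marker genes. Btg2 was highest in differentiating progenitors, at 14022, 14635 and 19983, against 8952, 7032 and 9336 in proliferating progenitors. Tubb3 was at 50230, 48666 and 39932 in neurons and at 1158 to 2511 in proliferating progenitors. All 8 radial glia markers were lower and all 7 neuron markers with a row were higher in neurons than in differentiating progenitors. Summed red blood cell genes (10 rows) were at 103726 to 259037 in proliferating progenitors, 226 to 2097 in differentiating progenitors and 200 to 284 in neurons, and no marker was at 0 throughout a group. Endothelial and mural markers (10 rows) summed to 615 to 1394, 359 to 393 and 94 to 141 in these groups, and microglia markers (10 rows) to 445 to 521, 312 to 379 and 146 to 174, with 2 microglia markers at 0 in all neuron libraries. The part of these cells in the ribosomal protein differences was not tested.

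The Rpl24 row is uncertain. Its identifier is named Zbtb11, a neighbouring gene, in GENCODE M21, so it was given no sequence value. Without it 19 members were lower in neurons than in differentiating progenitors and 23 lower than in proliferating progenitors. The Rpl13a row, at 4229 to 11295 in the 9 libraries, has the identifier of Rpl13a in GENCODE M21, but its deposited description names another gene, and which transcripts were counted for it is not known. Members with near-identical copies are likewise uncertain in level, since the authors' treatment of reads with several matches is not given in the sources used.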

How the data were processed

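Per the file headers, the authors deposited 1 table of 21210 Ensembl version 61 genes with a value for each library. The deposited values, called a score here, are normalised read counts in whole numbers. The authors' deposited group folds (ratio) and adjusted p-values were used for counts alone, and the deposited gene length is another column. The submitters' processing notes name build mm9 and the tools DESeq 1.8.1, bedtools 2.11, BWA and CASAVA 1.8.0, with no role for any. Normalised totals were 17531558 to 22076409 per library, and depth in reads is not known, so no counting interval is given.

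The log2(value + 1) values were fitted in limma 3.58.1 (R 4.3.3, intensity trend), a scale that understates changes of low genes. Genes with at least 10 in at least 3 libraries entered 1 fit of 9 libraries, with Benjamini-Hochberg adjustment over 15828 genes at 0.05. The fit was tested on simulated data. After removal of group means, same-numbered libraries correlated across genes (r from 0.507 to 0.767 in all 9 pairs, other pairs -0.64 to 0.428), so a blocked fit by replicate number is given where it changes a call or moves a count by over 1.5 times.

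Pseudogene rows were assigned to the member sharing most 50-base windows in GENCODE M21, and windows of 36 and 75 bases were also tried. Named are, per comparison, up to 8 called members in each direction, the 5 highest and 5 lowest per kilobase, members below the filter or called in opposite directions, paralogue pairs, and up to 3 genes per pathway list. Not every such gene is described, the results of a few are not reported here, and other members named in the text were chosen after their values were seen. Gene lists, members and tests were chosen with earlier results of these data known. Python 3.11.15 with numpy 2.4.6 and pandas 2.3.3 did the rest.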

Additional observations from a re-analysis of the deposited data

How the results depend on the processing

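Counts of members depended on the treatment of replicates and on scaling. For neurons against differentiating progenitors, 19 lower and 1 higher became 48 and 3 with the replicate block, 31 and 2 in replicates 2 and 3 alone, 35 lower with total-sum scaling and 67 lower with block and total scaling together. Over all genes, 4183 lower became 5620 with the block and 4619 of 14897 in replicates 2 and 3 alone. Total-sum scaling gave 5589 and both together 7419 of 15738. Leaving out 1 library gave 8 to 19 members lower and 1 to 2 higher, beside 3718 to 4209 of all genes lower. For neurons against proliferating progenitors, 24 lower and 1 higher became 50 and 2 with the replicate block, 39 lower in replicates 2 and 3 alone, 42 and 0 with total-sum scaling, and 69 lower with both, while leaving out 1 library gave 21 to 28 lower and 1 higher. Over all genes, 4924 lower became 6245 with the block and 5289 of 14897 in replicates 2 and 3 alone. Total-sum scaling gave 6605 and both together 8166 of 15738, and leaving out 1 library gave 4393 to 5003. For differentiating against proliferating progenitors, 2 lower became 12 with the block, 26 with block and total scaling, 5 in replicates 2 and 3 alone and 4 with total-sum scaling. It became 1 with no filter, with only the 6 libraries compared, without the intensity trend and with pseudogene rows by sequence added, and leaving out 1 library gave 1 to 3 lower. Over all genes, 1758 lower became 3489 with the block and 2651 of 14897 in replicates 2 and 3 alone. Total-sum scaling gave 2254 and both together 4441 of 15738, and leaving out 1 library gave 1060 to 1877. With pseudogene rows by sequence added, the share was 1.24%, 1.14% and 0.786% in proliferating progenitors, differentiating progenitors and neurons. Other alternatives stayed within 1.5 times of each count, and of the named members' changes 416 of 458 kept direction and side of the threshold, 34 lost the call, 8 moved by more than 1 SD within replicate 1 alone, where no test was run, and 0 changed sign. Adding pseudogene rows by sequence, and the block with total-sum scaling, were chosen after seeing the data. The cause of these differences was not tested. Values of at most 43 in every library, as for Rps6, Rps16, Rps23, Rps29 and Rpl38, limit what can be resolved for those members.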
